A study of Rattus norvegicus with 18 samples.

Results

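The 7 genes described here are the Fc receptors of rat synovial macrophages together with Fcrl2, out of 30643 genes listed in the deposited tables. They were taken by name from both time points: the activating receptors Fcgr1a (ENSRNOG00000021199), Fcgr2a and Fcgr3a, their signaling subunit Fcer1g, the inhibitory receptor Fcgr2b, the neonatal receptor Fcgrt, and the Fc receptor-like gene Fcrl2. Fcrl2 was taken because of how it differed between OA and sham at 4-weeks, so its 4-week difference is given as a description with no test. The other 6 were taken as a gene family. All 7 had a mean of at least 10 normalized reads at both time points and entered every fit.

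Male wild type Sprague Dawley rats had knee surgery at 12 weeks of age. In OA rats the anterior cruciate ligament and the medial meniscotibial ligament were cut, while sham rats had the joint opened and nothing cut, so both groups carry the arthrotomy. Synovium was digested 4 or 12 weeks later, cells were taken with CD11b/c magnetic beads, and total RNA depleted of ribosomal RNA was sequenced. There were 5 OA and 5 sham libraries at 4-weeks, each a pool of 4 rats, and 4 OA and 4 sham libraries at 12-weeks, each a pool of 3 rats. A library is therefore the mean of several animals, and the spread between libraries understates the spread between rats.

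Fc receptors bind the constant part of antibodies and let macrophages respond to immune complexes. Fcgr1a encodes the high-affinity IgG receptor CD64, and Fcgr2a and Fcgr3a encode lower-affinity activating receptors. These activating receptors signal through the ITAM motif of the common gamma chain encoded by Fcer1g, which the kinase Lyn phosphorylates and Syk binds. Fcgr2b carries an ITIM motif instead and recruits the phosphatases encoded by Inpp5d and Ptpn6, which dampen the signal. Fcgrt encodes FcRn, which pairs with beta-2-microglobulin (B2m) and returns endocytosed IgG and albumin to the circulation. Fcrl2 in the rat is also listed by RefSeq as Fcrls and Msr2; it resembles the Fc receptors in sequence, and its mouse counterpart Fcrls is used as a marker of microglia. RefSeq lists Fcgr3 as another name of rat Fcgr2a, and Fcgr4 and CD16-2 as other names of rat Fcgr3a.

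RefSeq windows of the 250 bases before the transcription start (build GRCr8, a later build than the Rnor_6.0 assembly used for the reads) were found for 3 of the 7 members, Fcgr2a, Fcgr3a and Fcgrt. They are shown because the receptor genes share a myeloid setting in which the factor PU.1 is known to act. Capitals mark the PU.1 core GAGGAA or its reverse complement TTCCTC, and each window is read 5′ to 3′ along the gene. The Fcgr2a window is the first of its 2 listed starts, at chr13:85828686-85828935 on the minus strand. Fcgr3a lies at chr13:85782386-85782635 on the plus strand, and Fcgrt at chr1:104720027-104720276 on the minus strand.
Fcgr2a: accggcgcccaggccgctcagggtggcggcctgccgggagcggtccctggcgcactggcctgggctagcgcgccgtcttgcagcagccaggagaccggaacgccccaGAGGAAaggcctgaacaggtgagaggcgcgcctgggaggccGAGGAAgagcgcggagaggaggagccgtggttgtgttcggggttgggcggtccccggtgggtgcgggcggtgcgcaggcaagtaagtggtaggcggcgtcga
Fcgr3a: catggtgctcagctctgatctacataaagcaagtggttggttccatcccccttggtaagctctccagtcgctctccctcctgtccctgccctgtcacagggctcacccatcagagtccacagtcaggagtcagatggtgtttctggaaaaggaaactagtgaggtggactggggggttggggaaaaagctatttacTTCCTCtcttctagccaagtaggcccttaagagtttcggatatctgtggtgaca
Fcgrt: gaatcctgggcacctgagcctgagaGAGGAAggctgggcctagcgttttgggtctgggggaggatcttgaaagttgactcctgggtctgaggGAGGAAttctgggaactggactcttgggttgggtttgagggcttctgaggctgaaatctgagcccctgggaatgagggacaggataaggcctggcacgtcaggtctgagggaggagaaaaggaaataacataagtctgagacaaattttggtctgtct
The core was present at 2 places in the Fcgr2a window and at 2 places in the Fcgrt window. In the Fcgr3a window it occurred once, as the reverse complement, with its nearest base 49 bases before the start. The second Fcgr2a start held no match. On either strand the same 6 letters occurred in 23.3% of the 33469 windows of this length, so a match is common. Of the letters TTCNNNGAA, bound by STAT factors in general, and the wider spacing preferred by STAT6, with 4 bases between TTC and GAA, only the first was found in these windows, once in Fcgrt, directly after the second PU.1 core and not overlapping it. These letters occur in 7.67% and 6.25% of all windows. The matches describe the sequence only, and no binding was measured.

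Sequencing depth ranged from 4662344 to 18080503 reads assigned to genes per library, with sham replicate 3 of 4-weeks the shallowest. The least-covered member, Fcgr3a, had between 76 and 495 reads in a library, and Fcgrt between 4402 and 14728. Among 14 macrophage markers, 13 passed a mean of 10 at each time point (all but Marco), and Csf1r averaged 23614 normalized reads at 4-weeks. The sorted cells also held other transcripts. The summed fibroblast markers, 9 of 10 listed in the tables, ran from 72658 to 155669 at 4-weeks, and Col1a1 alone averaged 16361. Endothelial markers, 6 of 7 listed, summed to 33225 to 46504 in OA and 36483 to 47174 in sham at 4-weeks. At 12-weeks they summed to 31968 to 42081 in OA and 37436 to 56171 in sham. What part fibroblast and endothelial transcripts had in the values of the 7 genes was not tested. Neutrophil markers, 11 of 11 listed and 9 with a mean of at least 10, summed to 13195 and 14754 in OA replicates 1 and 3 of 4-weeks against 1329 to 1689 in the other 3 OA libraries and 1924 to 5691 in sham. B and plasma cell markers, 4 of 10 with a mean of at least 10, were also highest in those 2 OA libraries, at 1597 and 1621, against 271 to 310 in the other 3 OA libraries and 223 to 1253 in sham. At 12-weeks they summed to 307 to 1534 in OA and 384 to 1128 in sham.

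Fcrl2 was the member that stood farthest apart between OA and sham at 4-weeks. The 5 OA libraries had 3331, 3043, 2511, 3383 and 1654 normalized reads. The 5 sham libraries had 1737, 1130, 996, 1684 and 1777. Of the OA libraries, replicates 1 to 4, lay above the highest sham library, while OA replicate 5 lay below 3 of the sham libraries, so the groups overlapped. The OA mean was 2784 ± 720 and the sham mean 1465 ± 371 (SD, n = 5 each), a ratio of 1.90 and a difference of 0.92 on the log2(normalized reads + 1) scale. Leaving out 1 library at a time gave differences from 0.79 to 1.10, and leaving out both libraries rich in neutrophil transcripts gave 0.85.

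At 12-weeks Fcrl2 had 2236, 1672, 913 and 2593 normalized reads in the 4 OA libraries. The 4 sham libraries had 1638, 1244, 937 and 1234. The 3 highest libraries were OA and the lowest was also OA (replicate 3), so the groups overlapped. The means were 1853 ± 733 (SD, n = 4) and 1264 ± 288 (SD, n = 4), and the difference of 0.48 ± 0.29 (SE, log2 scale) did not pass the test (95% interval -0.17 to 1.12, limma adjusted p = 0.51). The interval holds both no difference and a difference as large as that seen at 4-weeks. Without OA replicate 3 the difference was 0.78 (limma adjusted p = 0.44), and without OA replicate 4 it was 0.28 (limma adjusted p = 0.86). Across all the alternative settings at 12-weeks the adjusted p of Fcrl2 ranged from 0.21, in limma with replicate number as a block, to 0.86.

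**Figure D1:**
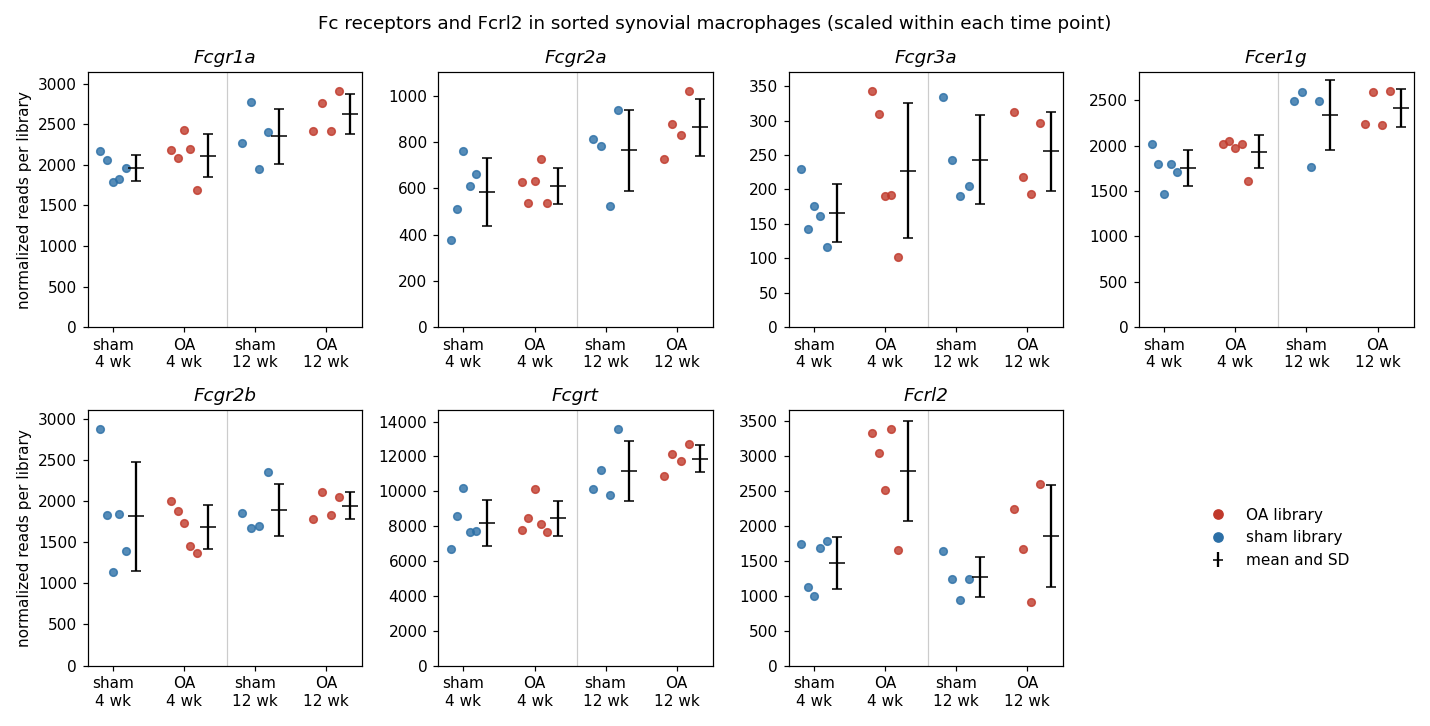
Normalized reads (vertical axis, from 0) of each of the 7 genes in every library, by group (horizontal axis); red points are OA libraries, blue points sham libraries, and bars give the mean and SD. Fcrl2 at 4-weeks shows 4 OA libraries between 2511 and 3383 above all 5 sham libraries, whose highest is 1777, and 1 OA library at 1654 among them; the other 6 genes overlap between OA and sham at both time points.

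None of the 6 Fc receptors passed the test of OA against sham at either time point. A gene was called when its difference was at least 0.5 on the log2 scale and its limma adjusted p was below 0.05. By this rule 0 of 6 were called at 4-weeks and 0 of 6 at 12-weeks, beside 0.0% of the 14861 genes tested at 4-weeks and 0.0% of the 14666 tested at 12-weeks, so the share of members called is that of the background. At an unadjusted p below 0.05, 1177 and 1814 genes were below the threshold, and none of the 6 was among them. edgeR called 0 genes at both time points, and DESeq2 called 27 (0.159% of those tested) at 4-weeks and 98 (0.695%) at 12-weeks, with 0 of the 6 receptors among them. In all 6, OA and sham libraries overlapped at both time points, where groups without overlap made up 1.87% of genes at 4-weeks and 6.29% at 12-weeks.

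**Figure D2:**
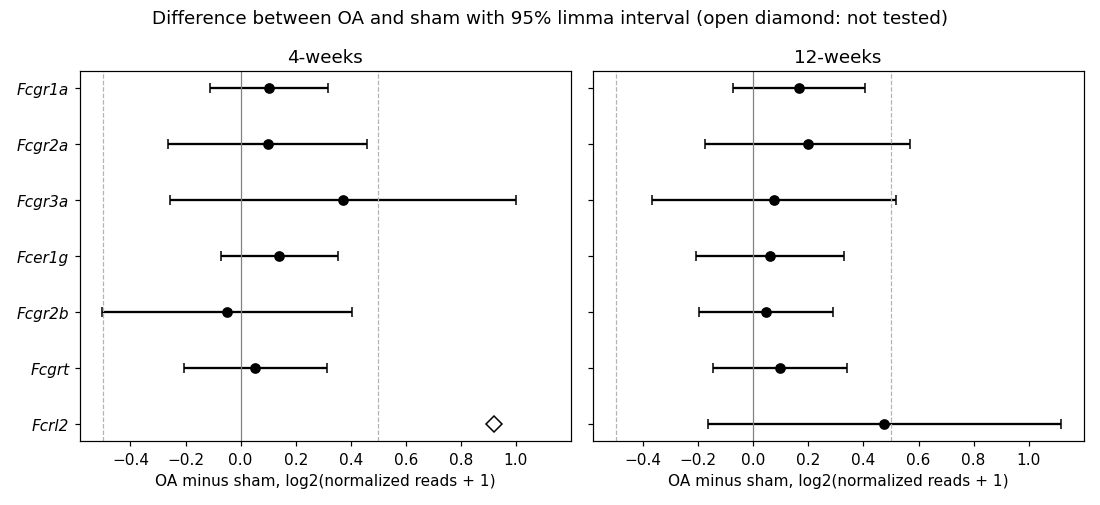
OA minus sham difference (horizontal axis, log2(normalized reads + 1)) of each gene at 4-weeks and 12-weeks; points are limma estimates, bars their 95% intervals, dashed lines the minimum of 0.5 for a call, and the open diamond is Fcrl2 at 4-weeks, given without a test. Every interval shown includes 0.

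Fcgr1a, the high-affinity IgG receptor, had 2188, 2080, 2424, 2193 and 1691 normalized reads in the OA libraries at 4-weeks and 2175, 2057, 1792, 1825 and 1958 in sham. At 12-weeks the OA libraries had 2419, 2756, 2423 and 2912, and the sham libraries 2275, 2772, 1947 and 2406. Both the highest and the lowest library of 4-weeks were OA, and at 12-weeks only OA replicate 4 exceeded every sham library. The log2 difference was 0.10 ± 0.10 (SE) at 4-weeks (95% interval -0.11 to 0.32, limma adjusted p = 0.78) and 0.17 ± 0.11 at 12-weeks (95% interval -0.07 to 0.41, limma adjusted p = 0.53). Neither interval reached the minimum of 0.5, so a rise of that size was outside both.

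Fcer1g encodes the gamma chain on which the activating receptors depend, and its coefficient of variation was between 8.61% and 16.3% in the 4 groups. Its OA libraries had 2020, 2049, 1976, 2021 and 1605 normalized reads at 4-weeks and its sham libraries 2013, 1801, 1462, 1797 and 1710. OA replicates 1 to 4 fell within a narrow band, which the highest sham library also reached, and OA replicate 5 lay apart below. At 12-weeks the values were 2242, 2587, 2229 and 2603 in OA and 2488, 2593, 1769 and 2493 in sham, where sham replicate 3 lay apart below the rest. The log2 differences were 0.14 ± 0.10 (SE, 95% interval -0.07 to 0.35, limma adjusted p = 0.72) and 0.06 ± 0.12 (95% interval -0.21 to 0.33, limma adjusted p = 0.85).

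Fcgr3a, the activating receptor also named CD16-2, varied most in OA at 4-weeks. The OA libraries of 4-weeks had 343, 310, 191, 192 and 101.9 normalized reads, and the sham libraries 229, 143, 176, 162 and 117. OA replicates 1 and 2 exceeded every sham library, and OA replicate 5 was the lowest of all 10. The coefficient of variation over these OA libraries was 43.1%, the highest of the 6 receptors in any group, beside 12.7% for Fcgr1a in the same libraries. The log2 difference of 0.37 ± 0.29 (SE) had a 95% interval of -0.26 to 1.00 (limma adjusted p = 0.74), so a doubling of Fcgr3a was not outside what these libraries allow. The difference was 0.19 without OA replicate 1 and 0.63 without OA replicate 5. At 12-weeks the values were 312, 219, 194 and 296 in OA and 334, 243, 191 and 206 in sham, with the sham libraries spanning all 4 OA libraries. The log2 difference there was 0.07 ± 0.20 (SE, 95% interval -0.37 to 0.52, limma adjusted p = 0.89).

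Fcgr2a, the other activating receptor, had 629, 536, 631, 725 and 538 normalized reads in OA at 4-weeks and 376, 512, 761, 609 and 663 in sham. The sham libraries held both the lowest value, in replicate 1, and the highest, in replicate 3. The log2 difference was 0.10 ± 0.17 (SE, 95% interval -0.26 to 0.46, limma adjusted p = 0.88). At 12-weeks Fcgr2a had 726, 880, 831 and 1022 in OA and 812, 784, 523 and 940 in sham, a log2 difference of 0.20 ± 0.17 (95% interval -0.17 to 0.57, limma adjusted p = 0.63). Without sham replicate 3 it was 0.03, and without sham replicate 4 it was 0.31. OA replicate 4 was the highest and sham replicate 3 the lowest, and the remaining libraries were interleaved.

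Fcgr2b, the inhibitory receptor, had 1994, 1873, 1735, 1451 and 1369 normalized reads in OA at 4-weeks. Sham libraries had 2872, 1832, 1130, 1838 and 1391. Sham replicate 1 was the highest and sham replicate 3 the lowest, so all OA libraries lay inside the sham range. The log2 difference was -0.05 ± 0.21 (SE, 95% interval -0.50 to 0.41, limma adjusted p = 0.95). At 12-weeks the OA libraries, with 1782, 2112, 1829 and 2047, again lay inside the range of the sham libraries, with 1850, 1676, 1695 and 2348. The log2 difference was 0.05 ± 0.11 (SE, 95% interval -0.20 to 0.29, limma adjusted p = 0.87).

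Fcgrt, the neonatal receptor that recycles IgG, had 7805, 8493, 10115, 8119 and 7686 normalized reads in OA at 4-weeks. The sham libraries had 6718, 8565, 10217, 7657 and 7716. The sham range contained every OA library. At 12-weeks the values were 10904, 12157, 11733 and 12715 in OA and 10143, 11222, 9772 and 13574 in sham, and once more OA lay inside sham. The log2 differences were 0.05 ± 0.12 (SE, 95% interval -0.21 to 0.31, limma adjusted p = 0.91) and 0.10 ± 0.11 (95% interval -0.15 to 0.34, limma adjusted p = 0.73). B2m, which encodes the light chain of FcRn, differed by -0.07 at 4-weeks (limma adjusted p = 0.86) and 0.05 at 12-weeks (limma adjusted p = 0.84). No difference as large as 0.5 lay within the intervals of Fcgrt.

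Summed markers of fibroblasts, resident synovial macrophages and skeletal muscle did not overlap between the same 12-week groups, while those of the other marker lists overlapped. Of single genes tested at 12-weeks, 6.29% did not overlap. The summed fibroblast markers were 132113 to 152880 in OA and 81917 to 128709 in sham. The summed resident synovial macrophage markers (8 of 9 listed in the tables) were 55139 to 64263 in OA and 45356 to 52849 in sham. Limma called 0 genes of either list, beside 0.0% of all genes tested at 12-weeks, so that count sets no limit on these sums. Skeletal muscle markers (9 of 12 listed) summed to 1567 to 2600 in OA and 1232 to 1429 in sham. Their part in the 12-week values of the 7 genes was not tested. In bulk libraries fewer cells of a type and less RNA per cell cannot be told apart. At 4-weeks the summed macrophage, resident macrophage and fibroblast markers overlapped between OA and sham, and without the pair of OA libraries rich in neutrophil transcripts the log2 differences of the 6 receptors ran from -0.15 for Fcgr2b to 0.18 for Fcgr3a, with limma adjusted p between 0.95 and 1.00.

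Ratios of 2 genes within a library do not depend on the scaling of that library. The log2 ratio of Fcrl2 to Fcgr1a at 4-weeks was 0.61, 0.55, 0.05, 0.63 and -0.03 in OA and -0.32, -0.86, -0.85, -0.12 and -0.14 in sham. All 5 OA libraries thus lay above all 5 sham libraries, although OA replicate 5 was separated from the nearest sham library by little; the mean difference was 0.82. This ratio carries the 4-week Fcrl2 values that led to its choice and is a description. At 12-weeks the ratio was -0.11, -0.72, -1.41 and -0.17 in OA and -0.47, -1.16, -1.05 and -0.96 in sham, and the groups overlapped. The balance of activating to inhibitory receptor, as the log2 ratio of Fcgr1a to Fcgr2b, was 0.33 ± 0.20 in OA and 0.18 ± 0.42 in sham at 4-weeks (SD, n = 5 each) and 0.43 ± 0.05 and 0.31 ± 0.29 at 12-weeks (SD, n = 4 each). Its groups overlapped at both time points, as did those of Fcgr2a to Fcgr2b, Fcgr3a to Fcgr2b and Fcer1g to Fcgr1a.

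**Figure D3:**
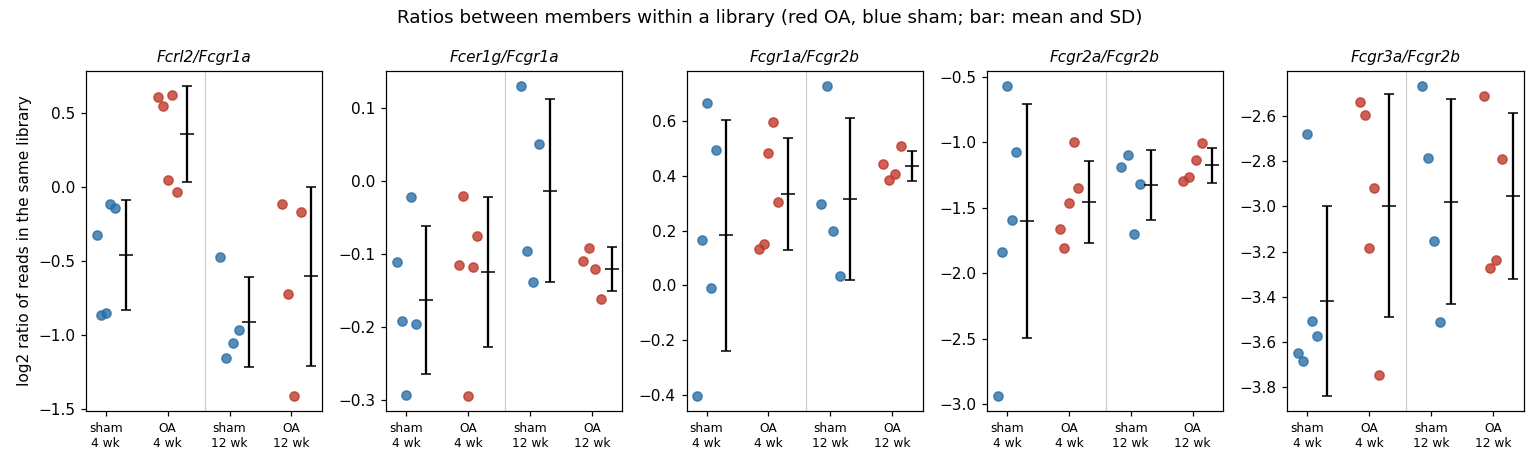
Log2 ratio of the reads of 2 genes in the same library (vertical axis, a separate scale in each panel) by group; red points are OA libraries, blue points sham libraries, and bars the mean and SD. Only Fcrl2 to Fcgr1a at 4-weeks separates the groups, with OA from -0.03 to 0.63 and sham from -0.86 to -0.12.

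The inhibitory Fcgr2b and the activating Fcgr2a ran in opposite directions across the 4-week libraries. Sham replicate 1 joined the highest Fcgr2b (2872) to the lowest Fcgr2a (376), and sham replicate 3 the lowest Fcgr2b (1130) to the highest Fcgr2a (761). Pearson r over the 10 libraries was -0.81 (Spearman rho -0.66), with -0.97 within the 5 sham and -0.09 within the 5 OA libraries. Without those 2 sham libraries r was -0.31 (n = 8), so the relation rested on them, and replicate 3 is the library of lowest depth. At 12-weeks the same 2 genes rose and fell together, with r 0.71 over 8 libraries (Spearman rho 0.83), 0.78 within OA and 0.69 within sham. These coefficients are descriptions of libraries that share their scaling and their cell mixture. Summed dendritic cell markers at 4-weeks were 5215 in sham replicate 1 and 2126 in sham replicate 3, the highest and lowest of the sham libraries. In OA they ran from 2102 to 3067. What part cell mixture or the counting of reads had in the relation was not tested. The 2 genes are near neighbours on the chromosome with similar sequences, and the related gene Fcgr2al1 in the same cluster has no row under that name in the tables, so reads of these paralogs could have been split or dropped in counting and the values of Fcgr2a, Fcgr2b and Fcgr3a are uncertain to that extent.

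**Figure D4:**
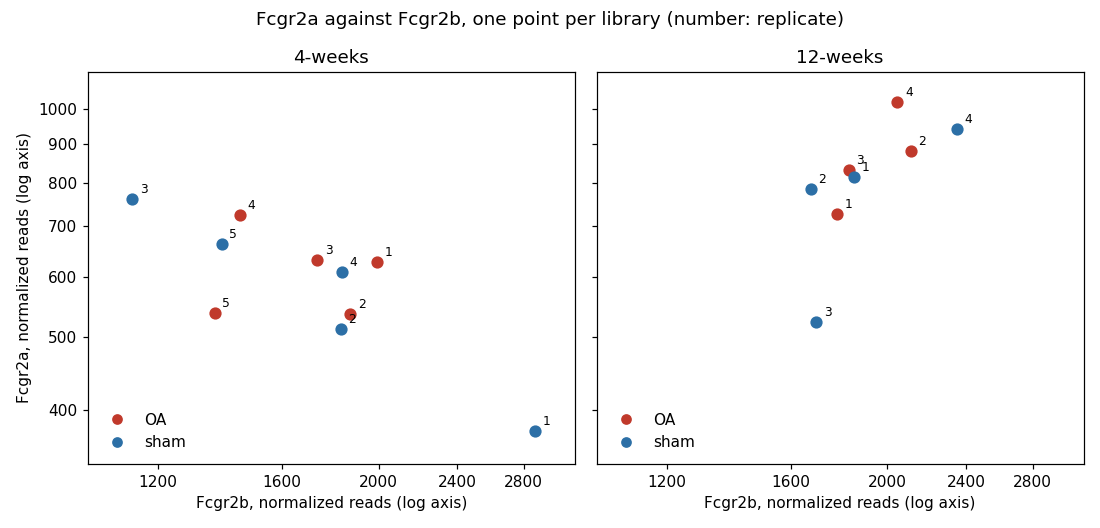
Fcgr2a (vertical axis) against Fcgr2b (horizontal axis), both as normalized reads on log axes, one point per library with its replicate number, OA red and sham blue. At 4-weeks the points run from sham 3 at upper left (1130, 761) to sham 1 at lower right (2872, 376); at 12-weeks they run from lower left to upper right.

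Among the 21 pairs of members, 12 had a positive correlation at both time points, and 5 exceeded 0.5 at both. The closest pair was Fcgr1a with Fcer1g, the receptor and its subunit, with r 0.82 at 4-weeks and 0.85 at 12-weeks. Leaving out single libraries kept it between 0.78 and 0.86 at 4-weeks, and the lowest value at 12-weeks was 0.63, without sham replicate 3. Fcrl2 varied with Fcgr3a (0.60 and 0.81), with Fcgr1a (0.60 and 0.56) and with Fcer1g (0.80 and 0.52). The 4-week values carry the gap between OA and sham for which Fcrl2 was chosen. With Fcgr3a at 4-weeks r was 0.85 within OA and -0.02 within sham, and at 12-weeks it was 0.91 and 0.92. With Fcer1g it was 0.94 within OA and 0.67 within sham at 4-weeks, and 0.50 and 0.78 at 12-weeks. Its values with Fcgr2b were 0.26 and 0.25. Fcgr2a varied with Fcgrt (0.60 and 0.83), although at 4-weeks without sham replicates 1 and 3 the value was -0.06.

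Over all 14419 other genes tested at both time points, likeness was measured as the lower of the Pearson r over 10 libraries at 4-weeks and over 8 at 12-weeks. Genes without a symbol were passed over, so the closest genes given are the closest with a symbol. The closest genes to Fcer1g were Oma1 (0.93), Vav1 (0.92), a guanine nucleotide exchange factor downstream of immune receptors, and Ptpn6 (0.92), the phosphatase that inhibitory receptors recruit. Fcgr1a was closest to Nucb2 (0.96), Hcls1 (0.89), a haematopoietic substrate of the same kinases, and RGD1565785 (0.87). Fcgrt was closest to C1qc (0.91), C1qa (0.90) and Itm2c (0.89), and Fcgr2a to Zfp282 (0.86), C1qb (0.83) and C1qc (0.82), so 2 members had genes of complement C1q, which binds antibody in immune complexes, among their 3 nearest. Fcgr2b was closest to Best1 (0.83), the costimulatory gene Cd86 (0.82) and Sirt7 (0.80). Fcgr3a had lower values, with Pde6d at 0.77, Slamf9 at 0.68 and Sapcd2 at 0.65. Fcrl2 was closest to Il21r (0.79), the receptor of interleukin-21, Nagpa (0.79) and Tom1l1 (0.77). For Fcrl2 the 4-week r carries the gap between OA and sham for which it was chosen. With Il21r it was 0.68 within OA and 0.93 within sham at 4-weeks, and 0.83 and 0.74 at 12-weeks. These are the highest of many values, with libraries sharing scaling and cell mixture.

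The 12- and 4-week libraries were compared on the log2 scale of CPM, the whole reads recovered from the tables scaled to library sizes adjusted by TMM (trimmed mean of M-values), over all 18 libraries. Time since surgery cannot be told apart here from the age of the rats, the number of rats in a pool and the handling of each time point. Fcgrt was higher by 0.32 ± 0.12 (SE) in sham and by 0.31 ± 0.12 in OA at 12-weeks, with limma adjusted p of 0.14 and 0.23, so the difference did not pass in either. Its CPM values were 670 ± 82.4 in sham and 719 ± 86.6 in OA at 4-weeks (SD, n = 5 each) and 836 ± 130 and 888 ± 56.8 at 12-weeks (SD, n = 4 each). None of the 6 receptors was called in sham, beside 1.68% of genes tested, or in OA, beside 0.93%. For the 6 the smallest adjusted p over all settings tried was 0.067 in sham and 0.10 in OA.

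By mean CPM, Fcgr1a, Fcgr2a, Fcer1g and Fcgrt were highest in OA at 12-weeks and lowest in sham at 4-weeks, with ranges of adjacent groups overlapping. Fcgr1a went from 162 ± 17.2 to 196 ± 18.3, Fcer1g from 145 ± 20.6 to 181 ± 15.5, and Fcgr2a from 47.8 ± 10.9 to 64.7 ± 9.13. Mean Fcgr2b was between 142 and 150 in every group, with all groups overlapping. Fcgr3a was lowest in sham at 4-weeks, at 13.6 ± 3.53, and between 18.2 and 19.4 in the other groups. Fcrl2 had another order, 237 ± 61.5 in OA at 4-weeks, 139 ± 54.6 in OA at 12-weeks, 121 ± 33.7 in sham at 4-weeks and 94.7 ± 22.5 in sham at 12-weeks. Its log2 change from 4- to 12-weeks was -0.83 in OA and -0.34 in sham, values that use the 4-week libraries it was chosen on and were not tested. The difference of the OA effect between time points passed the test for none of the 6 receptors (limma adjusted p from 0.80 to 0.99), beside 0 of 14732 genes called by limma (0.0%), 0 by edgeR and 0 by DESeq2, and 578 at an unadjusted p below 0.05 in limma. Its value was farthest from 0 for Fcgr3a, at -0.35 (95% interval -1.18 to 0.49).

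Beyond the members, 14 of 18 other Fc and immunoglobulin receptors were listed in the tables, and 5 of them had a mean of at least 10 at both time points. Fcmr, the receptor for the constant part of IgM, had 842 to 1306 normalized reads in OA and 975 to 1671 in sham at 4-weeks (log2 difference -0.26, limma adjusted p = 0.69), and 2025 to 2255 and 1857 to 2968 at 12-weeks (-0.08, limma adjusted p = 0.81). Across time Fcmr rose in OA from 93.9 ± 14.8 to 162 ± 7.72 CPM, a log2 change of 0.80 ± 0.17 (SE, limma adjusted p = 0.030, edgeR 0.017). Without OA replicate 1 of 12-weeks the limma adjusted p was 0.10, and 16 of 25 alternatives kept the call. In sham the change of 0.66 ± 0.17 had a limma adjusted p of 0.051 and was called in 5 of 25. Whether the change differed between OA and sham was not tested for Fcmr. The mast cell receptor genes Fcer1a and Ms4a2 had 32.2 to 83.6 and 49.9 to 103 normalized reads at 4-weeks, and Ms4a2 was at -0.36 and -0.50 on the log2 scale in OA against sham (limma adjusted p = 0.65 and 0.54). Fcer1a was at 0.0051 and -0.20 (limma adjusted p = 1.00 and 0.79). Summed mast cell markers ranged from 1114 to 2119 in OA and from 1581 to 2416 in sham at 4-weeks, and from 1860 to 3853 and 2366 to 4811 at 12-weeks; their part in the Ms4a2 values was not tested. Fcrla differed by 0.14 and 0.29 (limma adjusted p = 0.83 and 0.52), and Trim21, the cytosolic antibody receptor, by 0.03 and -0.02 (limma adjusted p = 0.94 and 0.93).

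Of 50 genes of Fc receptor signaling, 47 were tested at 4-weeks and 48 at 12-weeks, and 0 were called at either time point by limma, edgeR or DESeq2. Of all genes tested, limma and edgeR called 0.0%, and DESeq2 called 0.159% at 4-weeks and 0.695% at 12-weeks. At 4-weeks 37 of the 47 (78.7%) had a higher mean in OA beside 57.1% of all genes tested, with a median log2 difference of 0.08 beside 0.03. In edgeR the share was 31 of 47 (66.0%) beside 48.6%. DESeq2 gave 36 of 47 (76.6%), beside 50.5% of the 16978 genes to which it gave an adjusted p. Over all genes with a read, many of them low, the share was 38.0%. At 12-weeks the limma count was 25 of 48 (52.1%) beside 47.5%, with a median of 0.01 beside -0.01. At an unadjusted p below 0.05 there were 2 genes at 4-weeks and 4 at 12-weeks, against 7.92% and 12.4% of all genes tested. Those of 4-weeks were Pik3cg (0.34, a catalytic PI3K subunit) and Shc1 (0.19, an adaptor), and those of 12-weeks Shc1 (0.16), Pik3r5 (0.51, a regulatory PI3K subunit), Plcg1 (-0.33, a phospholipase) and Malt1 (-0.20), with limma adjusted p between 0.33 and 0.62. The kinase genes had small differences that did not pass. Lyn was at 0.22 ± 0.12 (SE) and 0.21 ± 0.11 (limma adjusted p = 0.66 and 0.46), and Syk was at 0.11 and 0.04. At 4-weeks, without sham replicate 3, the shallowest library, Lyn was at 0.12. The inhibitory phosphatases had 0.26 and 0.09 for Inpp5d and 0.18 and 0.14 for Ptpn6; Inpp5d at 4-weeks was 0.08 without the same library. The ITAM adaptor Tyrobp had 0.08 and 0.20. Plcg2, the phospholipase of this pathway in myeloid cells, was at 0.08 and -0.05. All limma adjusted p-values of these 4 genes and of Syk exceeded 0.5. Among the 5 of 6 phagocytic oxidase genes listed, 0 were called by limma, edgeR or DESeq2, beside the same shares of all genes tested. At an unadjusted limma p below 0.05 there were 0 at 4-weeks and 2 at 12-weeks, beside 7.92% and 12.4% of all genes tested. Those 2 were Ncf1 and Cyba, both higher in OA. The subunit genes Ncf1, Cyba, Cybb and Ncf4 were at 0.34, 0.10, 0.09 and 0.02 at 4-weeks and at 0.39, 0.33, 0.22 and 0.21 at 12-weeks, and Rac2, the GTPase that activates the enzyme, was at -0.13 and -0.10 (limma adjusted p from 0.32 to 0.97).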

How the data were processed

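Per the labels and the study's methods, the authors trimmed reads with fastp 0.20.0, aligned them with STAR 2.7.6a to Rnor_6.0 with Ensembl annotation, removed duplicates, counted reads per gene with featureCounts 2.0.0 and divided counts by DESeq2 1.24.0 size factors within each time point. The deposited signal is this normalized read count per gene and library. Dividing by the value of 1 read gave whole reads for 100% of values (tolerance 0.02 reads). The deposited columns of the authors' own comparisons (mean signal, log2 fold change and its error, a test score, p-values) were not used.

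For 12-weeks the labels used here hold fewer libraries per group than the study's methods state, and the labels were followed. OA and sham were compared within each time point by limma 3.58.1 with a variance trend on log2(normalized reads + 1), for genes with a mean of at least 10. Because the tables were normalized separately, time points were compared on log2 CPM (TMM, prior count 2) of the recovered reads over all 18 libraries, where genes needed a mean of 10 reads. P-values were adjusted over all genes tested (Benjamini-Hochberg); intervals are at 95%. The edgeR 4.0.16 and DESeq2 1.42.0 tests ran on recovered reads, and the pipeline was tested on simulated data in R 4.3.3. No 2 replicate libraries were alike within sampling noise: over 32 pairs, chi-square per degree of freedom was 5.39 to 35.0. Intervals cover the spread between pools only. Gene lengths were not used, so levels are not compared between genes.

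The members and all gene lists were chosen with earlier results of these data known. Named are the 7 members and the other Fc and immunoglobulin receptors with a mean of at least 10 at both time points. Syk, Lyn, Inpp5d, Ptpn6, Plcg2, Tyrobp, B2m and Trim21 are also named, with the 3 genes with a symbol most like each member. Pik3cg, Shc1, Pik3r5, Plcg1, Malt1 and the 5 oxidase genes were named after their values were seen. Some items of the lists are not reported here. Alternatives changed the pseudocount or prior count, the filter on low values, the scaling, the fold minimum and the tool, added a replicate block, and left out single libraries. Of further marker lists, 0 genes of the NK and T cell, dendritic cell, endothelial, and B and plasma cell lists were called at either time point by limma, beside 0.0% of all genes tested. Promoter windows come from RefSeq, where Fcgr1a, Fcer1g, Fcgr2b and Fcrl2 were not matched.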

Additional observations from a re-analysis of the deposited data

Results flagged for a closer look

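Of 28 groups of libraries (7 genes in 4 groups), 2 held a library far from the others of its group, both for Fcer1g; chance marks about 1 group in 20. OA replicate 5 at 4-weeks had 1605 normalized reads, where the nearest other OA library had 1976 and the farthest 2049. Sham replicate 3 at 12-weeks had 1769, where the others had 2488 to 2593. The same libraries were also the lowest of their groups for Fcgr1a, at 1691 and 1947, and for Fcgr3a, Fcgrt and Fcrl2. OA replicate 5 was the lowest for Fcgr2b too, and sham replicate 3 for Fcgr2a. Each had the fewest reads of its group, at 11046979 and 10976114. Summed macrophage markers were also lowest there, at 144696 and 160501. The part of these library-wide features in the Fcer1g values was not tested.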

How the results depend on the processing

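Under every alternative run, none of the 6 Fc receptors was called in any contrast, nor Fcrl2 at 12-weeks. Of 676 alternative values of the 7 genes in contrasts with a test, 624 kept their direction and their side of the threshold, and 52 changed sign, none beyond 0.19 on the log2 scale. The 94 alternative values of Fcrl2 in contrasts without a test all kept their sign.

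The count of genes called by limma at 4-weeks (0) became 27 in DESeq2 and 1 with TMM scaling (Slc1a3) or with a replicate block (C1qtnf3); leaving out single libraries gave 0 to 1, the 1 (Slc1a3) without sham replicate 3. These gene names were chosen after their values were seen. Without the 2 libraries rich in neutrophil transcripts, an alternative chosen after seeing the data, it was 0. At 12-weeks the count (0) became 98 in DESeq2; leaving out single libraries gave 0 to 81, with 81 without sham replicate 3 and 1 (Mamdc2) without sham replicate 4. In sham across time the count was 247 with limma and 548 with DESeq2, and 89 to 296 with single libraries left out (160 without 4-week replicate 2, 130 without 12-week replicate 1, 89 without 12-week replicate 4). In OA across time it was 137, became 53 with every gene that had a read and 265 with DESeq2, and was 52 to 230 with single libraries left out (52 to 81 without any 1 of the OA libraries other than 4-week replicate 3, and 230 without sham 4-week replicate 3). Fewer libraries enter those fits; beyond this the cause was not tested. The difference between time points stayed at 0 genes in every setting.

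The replicate numbers name pools of different rats, and deviations of same-numbered OA and sham libraries correlated at -0.13 to 0.30, with 1 of 9 libraries closest to its own number, so they were not treated as pairs. With the replicate block, Fcgr3a in OA across time was -0.11 and Fcgr2b -0.042, and no call among the members changed.

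Other values changed sign close to 0. Fcgr2b at 4-weeks was 0.0026 with TMM scaling, Fcgrt at 4-weeks -0.00017 without the 2 neutrophil-rich libraries, and Trim21 at 4-weeks -0.0065 in edgeR. The difference of the OA effect for Fcgrt was 0.047 with DESeq2 size factors, 0.079 in edgeR and 0.045 in DESeq2. Fcgr3a in OA across time was -0.016 in edgeR and -0.014 in DESeq2.

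With single libraries left out, ranges crossed 0 at 4-weeks for Fcgr2a (-0.051 to 0.20), Fcgr2b (-0.20 to 0.14), Fcgrt (-0.013 to 0.14), Fcer1a (-0.15 to 0.19), Syk (-0.037 to 0.17) and Trim21 (-0.054 to 0.061). At 12-weeks they did so for Fcgr3a (-0.032 to 0.24), Fcer1g (-0.068 to 0.12), Fcgr2b (-0.0060 to 0.16), Fcmr (-0.18 to 0.049), Syk (-0.15 to 0.11), Ptpn6 (-0.014 to 0.22), Plcg2 (-0.13 to 0.0034) and Trim21 (-0.048 to 0.025). For the difference of the OA effect the ranges were -0.065 to 0.12 for Fcgr1a, -0.099 to 0.19 for Fcgr2a, -0.15 to 0.22 for Fcgr2b and -0.066 to 0.11 for Fcgrt. Across time they were -0.19 to 0.18 for Fcgr2b in sham, -0.043 to 0.091 for Fcgr2b in OA and -0.19 to 0.25 for Fcgr3a in OA. Among the members, ranges of OA against sham stayed above 0 at 4-weeks for Fcgr1a (0.051 to 0.18), Fcgr3a (0.19 to 0.63) and Fcer1g (0.077 to 0.21). Fcrl2, not tested there, ran from 0.79 to 1.10. At 12-weeks those above 0 were Fcgr1a (0.081 to 0.25), Fcgr2a (0.027 to 0.31), Fcgrt (0.037 to 0.19) and Fcrl2 (0.28 to 0.78).

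The members had at least 76 reads in each library. Intervals cover the spread between 4 or 5 pools a group, and differences that lie inside an interval are not excluded by these libraries.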
